A study of Homo sapiens with 27 samples.

Results

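The proteasome genes were followed across 5 states of IMR90 cells, an established line of normal human fetal lung fibroblasts. The members were all protein-coding genes whose symbol is PSMA, PSMB, PSMC, PSMD, PSME, PSMF or PSMG followed by a number, and this rule, which uses names and no measured value, gave 48 of the 19307 protein-coding genes in the count tables. RNA-seq and ribosome profiling (Ribo-seq, which sequences the mRNA fragments that ribosomes shield from RNase) were made from material harvested in parallel, giving 27 libraries. The labels call the cells wild type, except those of thapsigargin cells, which give no genotype. All cells grew in medium with serum, and cycloheximide was in the buffer that lysed them. Cycling cells were taken at 40 to 60% confluency (2 RNA-seq and 3 Ribo-seq libraries). Quiescent cells were arrested by contact inhibition (3 and 3). Irradiated cells were senescent after 15 Gy of ionizing radiation and 10 days (3 and 3), and etoposide cells were senescent after 3 treatments with 50 µM etoposide, a topoisomerase II poison that breaks DNA, over 10 days (3 and 3). Thapsigargin cells were cycling cells given 25 nM thapsigargin, which blocks the calcium pump of the endoplasmic reticulum, for 3 h (2 and 2). The medium given for thapsigargin cells lists no antibiotics, unlike that of the other states. IMR90 is 1 cell line, and nothing in the labels says that replicates were separate cultures, so p-values measure the spread between these samples, which may be technical.

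The proteasome is the barrel-shaped protease that degrades ubiquitin-tagged proteins. Its core particle has outer rings of alpha subunits (PSMA genes) and inner rings of beta subunits (PSMB genes), of which PSMB5, PSMB6 and PSMB7 carry the active sites. In cells exposed to interferon these are replaced by PSMB8, PSMB9 and PSMB10, the immunoproteasome subunits that favour peptides for antigen presentation. The regulatory particle adds a base with a ring of ATPases (PSMC genes) that unfolds substrates and a lid that removes ubiquitin (PSMD genes). Dedicated chaperones (PSMG genes, PSMD5, PSMD9 and PSMD10) assemble these parts, and PSME genes encode alternative caps.

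Depth differed between the 2 kinds of library. RNA-seq libraries held 20635503 to 57119841 gene counts and Ribo-seq libraries 1936976 to 19996104, the 2 thapsigargin Ribo-seq libraries being the shallowest. The proteasome genes together took 0.472 to 0.557% of RNA-seq counts and 0.906 to 1.13% of footprint counts in every library. All 8 fibroblast markers exceeded 1 CPM (counts per 1e6 scaled counts of the protein-coding genes tested) in at least 1 RNA-seq and 1 Ribo-seq library. Together these 8 summed to at least 8873 CPM in each RNA-seq library. None of 5 immune markers reached 1 CPM, the endothelial list held only VWF above 1 CPM (at most 2.61 CPM), and KRT8 carried the epithelial list, at up to 24.5 CPM.

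Few proteasome mRNAs were called as changed in any state. Of 46 proteasome genes tested in the RNA-seq, 0 were called in quiescent against cycling cells by edgeR's quasi-likelihood test (3 had an unadjusted p under 0.05, and DESeq2 called 2), beside 15.6% of all genes (5.18% higher and 10.4% lower), of 13291 tested. A call is an adjusted p under 0.05, with Benjamini-Hochberg adjustment over all protein-coding genes tested. In irradiated cells 5 of 46 were called (2 higher and 3 lower), beside 34.9% of all genes (16.2% higher and 18.8% lower). In etoposide cells 6 of 46 were called (3 higher and 3 lower), beside 34.5% of all genes (16.8% higher and 17.8% lower). After thapsigargin 3 were called, all lower, beside 24.5% of all genes (11.7% higher and 12.8% lower). The members' shares, 10.9%, 13.04% and 6.52%, were below these backgrounds. The median log2 fold change of the tested proteasome mRNAs was -0.04 in irradiated, -0.03 in etoposide and -0.05 in thapsigargin cells, beside 0.03, 0.00 and -0.03 for all genes. Between 42 and 44 of the 46 lay within 0.5 of 0 in these 4 comparisons, and the median standard error of a member was 0.14 to 0.15, so small changes could go uncalled at this precision. All comparisons with cycling cells share the same cycling libraries. In bulk RNA, a change in fewer cells and a smaller change in every cell cannot be told apart.

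More members were called in footprints than in RNA in each state. Of 44 members tested in the Ribo-seq, 3 were called in quiescent cells, all lower, beside 21.7% of all genes (7.09% higher and 14.6% lower), of 11764 tested. In irradiated cells 11 were called (4 higher and 7 lower), beside 39.8% of all genes (17.2% higher and 22.6% lower). In etoposide cells 11 were called (4 higher and 7 lower), beside 34.0% of all genes (16.4% higher and 17.6% lower). After thapsigargin 22 were called, 11 higher and 11 lower, which is 50.0% of the members, beside 44.4% of all genes (20.0% higher and 24.4% lower). In the last 3 of these comparisons members were called in both directions, and the median log2 fold change of the tested members was 0.03 in irradiated, -0.05 in etoposide and 0.09 in thapsigargin cells, beside -0.01, -0.01 and -0.11 for all genes. With the fit restricted to the 2 states compared, 20 members were called in etoposide and 18 in irradiated footprints and 12 and 10 in RNA. Leaving out cycling RNA-seq replicate 1 left 0 calls in irradiated and 2 in etoposide RNA, and leaving out single Ribo-seq libraries left 7 to 9 and 6 to 10 calls in footprints.

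**Figure D1:**
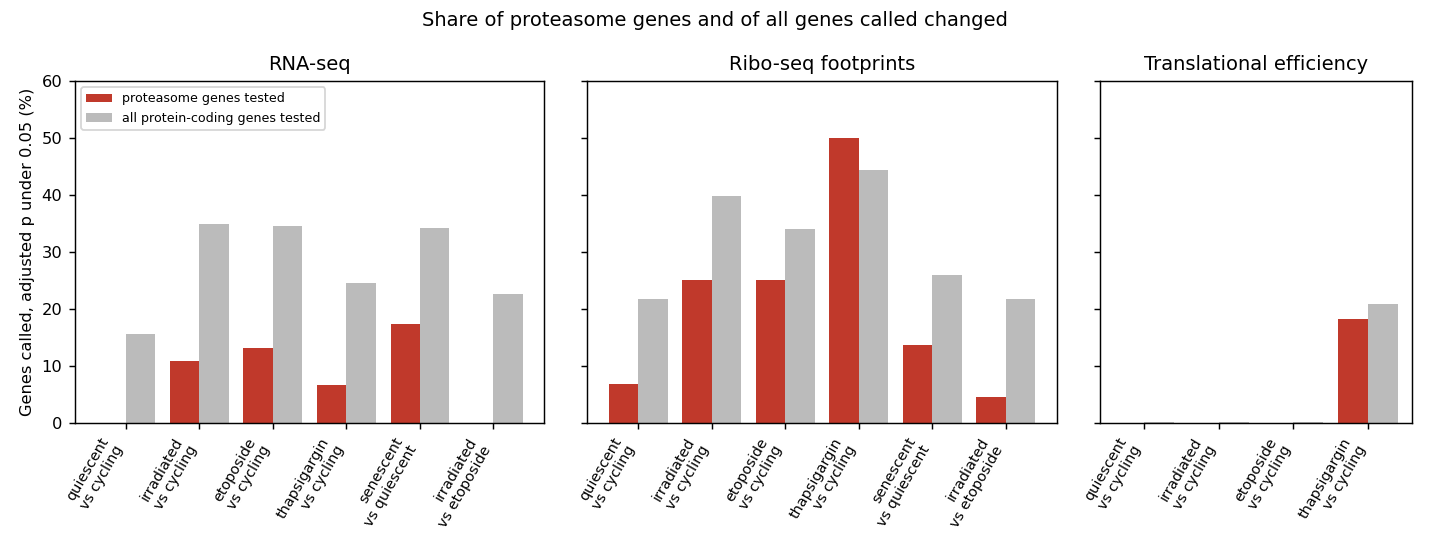
Share of proteasome genes (red) and of all protein-coding genes tested (grey) called at an adjusted p under 0.05, in percent, for each comparison in RNA-seq, Ribo-seq and translational efficiency. Proteasome bars are lower than the grey bars in every comparison except thapsigargin footprints, at 50.0% beside 44.4%.

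**Figure D2:**
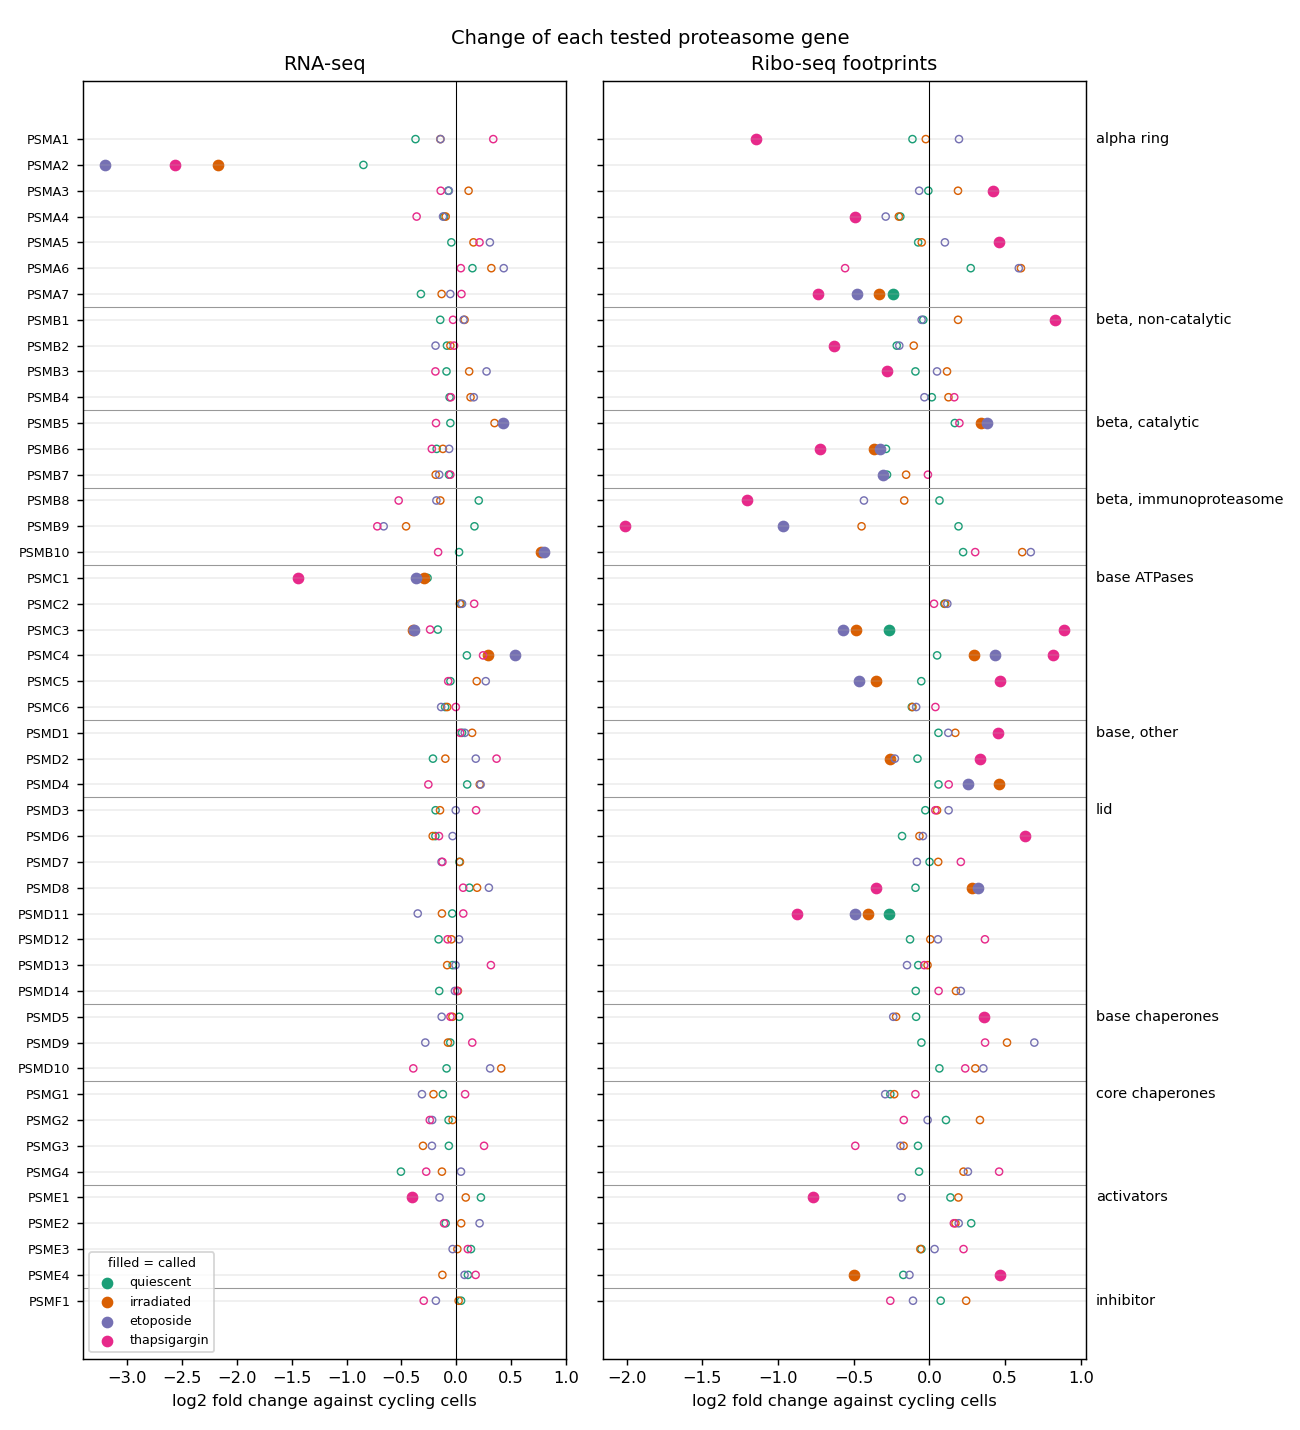
Log2 fold change against cycling cells of each tested proteasome gene (rows, grouped by role) in RNA-seq (left) and Ribo-seq (right), with colours for the 4 states and filled points for called genes. Between 42 and 44 of the 46 RNA points of each state lie within 0.5 of 0, with PSMA2 the farthest below 0 in the 3 treated states, while footprint points of thapsigargin cells spread to both sides.

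4 members could not be followed in full. PSMA8, the testis form of an alpha subunit, and PSMB11, the catalytic subunit of the thymus, had 0 to 4 counts in every library and were not tested. PSMA2, an alpha ring subunit of every proteasome, had 2 to 29 counts per RNA-seq library and at most 1 per Ribo-seq library. PSMC1, a base ATPase, had 2613 to 4923 RNA-seq counts per library but 0 to 10 footprint counts. Both genes have processed copies: symbols of the form PSMA2P or PSMC1P followed by a number occurred 3 and 13 times, and 17 members had 44 such symbols in all. Reads that map to several places are in no gene's count here. Values of PSMA2, PSMC1, PSMA1 and PSMA6 are uncertain, and the part of the copies, or of any other cause, in them was not tested.

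PSMA2 RNA stood at 0.803 and 1.35 CPM in cycling, 0.262, 1.09 and 0.403 in quiescent cells, 0.19, 0.352 and 0.157 in irradiated, 0.14, 0.148 and 0.0539 in etoposide and 0.0488 and 0.281 in thapsigargin libraries. Every irradiated, etoposide and thapsigargin value was below both cycling values, and the log2 fold changes were -2.17 ± 0.71, -3.21 ± 0.76 and -2.57 ± 0.76 (SE; adjusted p = 0.0296, 0.00511 and 0.0255), all from no more than 29 counts. The irradiated and thapsigargin calls were lost without either cycling library, with adjusted p of 0.0599 to 0.181 and 0.0557 to 0.157, and with unstranded counts (0.095 and 0.0835). The irradiated call was also lost without irradiated replicate 1 or 3 (0.0875 and 0.0937), and the thapsigargin call without thapsigargin replicate 1 (0.107) and with the 2 states alone (0.0779). The thapsigargin value was -1.89 without thapsigargin replicate 1 and -4.31 without replicate 2, while the etoposide call held in every alternative. PSMC1 RNA stood at 171 and 167 CPM in cycling and 63.7 and 60.4 CPM in thapsigargin cells, 1.45 ± 0.11 lower on the log2 scale (adjusted p = 1.38e-06). It fell by less in irradiated (133 to 142 CPM) and etoposide cells (129 to 133 CPM), by 0.30 ± 0.09 and 0.37 ± 0.09. The call was lost without cycling RNA-seq replicate 1 in both (adjusted p = 0.15 and 0.072), and in irradiated cells also under 5 other alternatives.

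In the alpha ring, the gate through which substrates enter the core, the RNA of the 6 tested subunits other than PSMA2 was not called in any comparison. PSMA7 was the 1 alpha subunit whose footprints were lower in both senescent states. Its footprints stood at 768, 799 and 780.4 CPM in cycling, 700.2, 676 and 608 in quiescent cells, 621, 612 and 634 in irradiated, 596, 574 and 519 in etoposide and 457 and 483 in thapsigargin libraries. The cycling libraries did not overlap with those of any other state. The log2 fold changes were -0.24 ± 0.08, -0.33 ± 0.08, -0.48 ± 0.08 and -0.74 ± 0.09, with adjusted p of 0.041, 0.00452, 0.000384 and 3.81e-05. Its RNA, at 260.0 and 229 CPM in cycling, 193 to 250.3 CPM in irradiated and 228 to 244 CPM in etoposide cells, overlapped between these states and was not called. The senescent and thapsigargin calls held in every alternative tried, and the quiescent call was lost in 8 of 13, with adjusted p up to 0.175.

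The 3 standard catalytic subunits went in different directions. PSMB5, which carries the chymotrypsin-like site, had RNA at 220.1 and 217 CPM in cycling, 244, 226 and 163 in quiescent cells, 262, 311 and 263 in irradiated, 271, 312 and 298 in etoposide and 199 and 186 in thapsigargin cells. All 6 senescent libraries were above the cycling and quiescent ones. Its RNA was 0.44 ± 0.12 higher in the mean of both senescent states than in quiescent cells (adjusted p = 0.0123). It was 0.43 ± 0.15 higher in etoposide than in cycling cells (adjusted p = 0.0468), while the irradiated value of 0.35 ± 0.15 was not called (adjusted p = 0.0954). The irradiated value passed the threshold with the 2 states alone (0.33, adjusted p = 0.0092). PSMB5 footprints stood at 249.8, 271 and 288 CPM in cycling, 315, 328 and 379 in irradiated and 345, 352 and 356 in etoposide cells, without overlap between cycling and senescent libraries. They rose by 0.34 ± 0.09 and 0.38 ± 0.09 on the log2 scale (adjusted p = 0.0102 and 0.00599), and these 2 calls held in every alternative tried. PSMB5 footprints were not called in quiescent against cycling cells (0.17) or in the senescent mean against quiescent cells (0.19). The last value passed the threshold with DESeq2 (adjusted p = 0.0434). The etoposide RNA call was lost without either cycling library or etoposide replicate 2 or 3 (adjusted p of 0.094 to 0.18).

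PSMB6, which carries the caspase-like site, had footprints at 166, 192 and 216 CPM in cycling, 149.9, 149.7 and 171 in quiescent cells, 137, 147 and 161 in irradiated, 156, 154 and 146 in etoposide and 107 and 125 in thapsigargin cells. All senescent and thapsigargin libraries were below the lowest cycling library. The falls were 0.37 ± 0.11 in irradiated, 0.33 ± 0.11 in etoposide and 0.72 ± 0.13 in thapsigargin cells on the log2 scale (adjusted p = 0.0169, 0.0326 and 0.000709), and its RNA was not called in any comparison. PSMB7, which carries the trypsin-like site, had footprints at 293, 350.1 and 397 CPM in cycling and 283, 271 and 287 CPM in etoposide cells, 0.31 ± 0.10 lower (adjusted p = 0.0272). Its irradiated value of -0.15 ± 0.10 and its thapsigargin value of -0.01 ± 0.11 were not called, nor was its RNA. The irradiated value passed the threshold without cycling Ribo-seq replicate 1 (adjusted p = 0.0387). Quiescent footprints of PSMB6 and PSMB7 were not called. Both passed the threshold without cycling replicate 1 (0.0367 and 0.0121) and with a replicate block (0.049 and 0.0434), and PSMB7 also without the thapsigargin libraries (0.0467). Without cycling Ribo-seq replicate 3, the highest cycling library for both genes, the senescent calls were lost (adjusted p = 0.13 and 0.18 for PSMB6 and 0.16 for PSMB7). They were also lost without cycling replicate 2 or without 1 or more of the senescent libraries, whereas the thapsigargin call of PSMB6 held in every alternative.

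**Figure D3:**
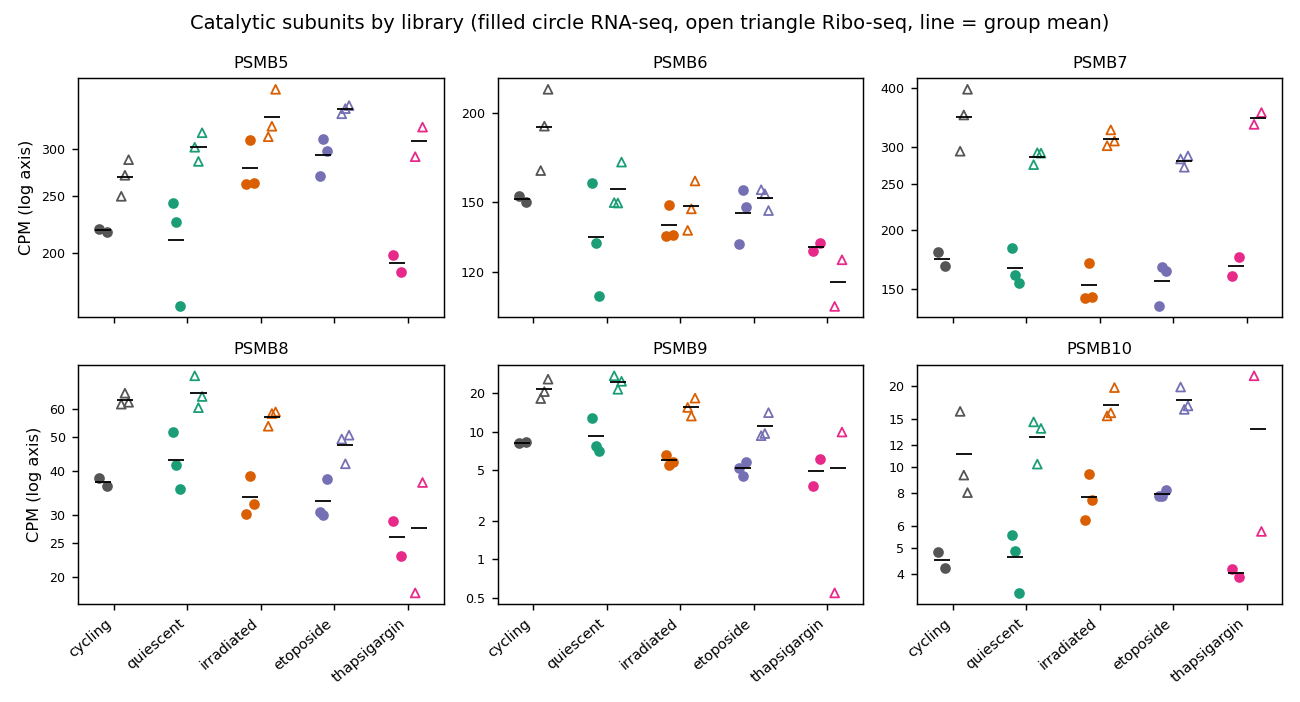
Normalised read counts (CPM, log axis, a separate scale in each panel) of the 3 standard and 3 immunoproteasome catalytic subunits in each library, with filled circles for RNA-seq, open triangles for Ribo-seq and lines for group means. PSMB5 and PSMB10 RNA are higher in the senescent libraries, and PSMB9 footprints reach their lowest value, 0.545 CPM, in a thapsigargin library.

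Of the immunoproteasome subunits, PSMB10 RNA was called higher and PSMB9 RNA lower in the senescent mean than in quiescent cells. Against cycling cells, PSMB9 RNA and PSMB10 footprints were not called in either senescent state. PSMB8, PSMB9 and PSMB10 are known as interferon targets, and other results turn on PSMB5, PSMC3 and PSMC4. For these reasons the windows of 250 bases before the transcription starts of these genes are printed. They are RefSeq sequences of GRCh38.p14, read 5′ to 3′ on the strand of the gene, at chr6:32844680-32844929 (minus strand), chr6:32853942-32854191 (plus), chr16:67936851-67937100 (minus), chr14:23035221-23035470 (minus), chr11:47426440-47426689 (minus) and chr19:39970915-39971164 (plus). Capitals mark matches on either strand to GAAA followed after any 2 bases by GAAA (the core of the interferon-stimulated response element), CCAAT (the CCAAT box) and TGACNNNGC (the core of the antioxidant response element).
PSMB8: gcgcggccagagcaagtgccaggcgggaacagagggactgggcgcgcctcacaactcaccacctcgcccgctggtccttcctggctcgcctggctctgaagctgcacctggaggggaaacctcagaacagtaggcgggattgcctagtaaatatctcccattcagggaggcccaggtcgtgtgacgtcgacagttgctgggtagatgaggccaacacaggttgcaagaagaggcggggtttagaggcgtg
PSMB9: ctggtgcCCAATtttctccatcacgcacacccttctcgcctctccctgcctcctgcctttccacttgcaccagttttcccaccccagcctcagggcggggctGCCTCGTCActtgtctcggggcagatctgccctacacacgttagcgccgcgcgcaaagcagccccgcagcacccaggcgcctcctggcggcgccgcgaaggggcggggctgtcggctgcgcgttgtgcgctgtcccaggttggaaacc
PSMB10: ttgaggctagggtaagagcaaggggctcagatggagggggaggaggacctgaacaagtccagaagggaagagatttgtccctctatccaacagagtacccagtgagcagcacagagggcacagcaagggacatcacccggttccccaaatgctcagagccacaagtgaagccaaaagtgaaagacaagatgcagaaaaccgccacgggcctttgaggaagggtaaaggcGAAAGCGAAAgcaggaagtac
PSMB5: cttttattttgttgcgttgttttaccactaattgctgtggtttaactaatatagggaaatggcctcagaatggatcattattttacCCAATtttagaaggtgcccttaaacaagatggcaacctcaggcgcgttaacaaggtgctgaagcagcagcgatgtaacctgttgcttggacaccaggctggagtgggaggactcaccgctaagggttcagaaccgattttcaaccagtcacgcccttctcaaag
PSMC3: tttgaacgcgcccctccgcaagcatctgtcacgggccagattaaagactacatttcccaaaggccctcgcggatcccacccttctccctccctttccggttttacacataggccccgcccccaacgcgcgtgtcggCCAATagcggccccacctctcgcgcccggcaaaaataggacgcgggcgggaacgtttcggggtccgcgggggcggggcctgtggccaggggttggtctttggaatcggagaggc
PSMC4: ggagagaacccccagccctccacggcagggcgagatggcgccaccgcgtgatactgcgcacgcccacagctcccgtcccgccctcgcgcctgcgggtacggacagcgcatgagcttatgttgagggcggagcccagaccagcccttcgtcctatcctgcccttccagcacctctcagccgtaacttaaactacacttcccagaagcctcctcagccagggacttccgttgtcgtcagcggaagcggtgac
The interferon motif was in 2.71% of the 21574 RefSeq windows of this length and in 5 of the 51 windows of 42 proteasome genes (PSMA4, PSMB4, PSMB10, PSME2 and PSMG4). In PSMB10 it began 21 bases before the start. CCAAT was in 32.9% of all windows and in 19 of the 51, among them PSMB5, PSMB9 and PSMC3. TGACNNNGC was in 11.2% of all windows and in 13 of the 51, among them PSMB9, where it lay on the other strand. The marked matches do not overlap, and the windows of PSMB8 and PSMC4 held none of the 3. These matches describe the letters in the windows only.

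PSMB10 RNA was higher in both senescent states. It stood at 4.82 and 4.203 CPM in cycling, 5.57, 4.83 and 3.39 in quiescent cells, 6.33, 9.38 and 7.51 in irradiated, 7.76, 7.76 and 8.17 in etoposide and 4.17 and 3.899 in thapsigargin cells. All 6 senescent libraries were above all 7 others. The log2 fold changes were 0.77 ± 0.23 in irradiated and 0.80 ± 0.23 in etoposide against cycling cells (adjusted p = 0.0175 and 0.0146) and 0.76 ± 0.18 in the senescent mean against quiescent cells (adjusted p = 0.00491). The last call held in every alternative, while those against cycling cells were lost without either cycling library (adjusted p of 0.062 to 0.13) and, for irradiated cells, also without irradiated replicate 2 (0.071). Its footprints, at 16.1, 9.302 and 8.004 CPM in cycling, 14.7, 10.2 and 13.9 in quiescent cells, 15.4, 15.9 and 19.7 in irradiated and 19.8, 16.3 and 16.8 in etoposide cells, were not called in irradiated (0.61 ± 0.34, adjusted p = 0.172) or etoposide cells (0.67 ± 0.33, adjusted p = 0.136). Irradiated libraries overlapped with the highest cycling library and etoposide ones did not, and the etoposide value passed the threshold without cycling replicate 1 (adjusted p = 0.0446) and under 2 other alternatives. The irradiated value passed it with the 2 states alone (0.0336). The 2 thapsigargin Ribo-seq libraries differed in PSMB10, at 21.8 and 5.74 CPM.

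PSMB9 went the other way. Its RNA stood at 8.07 and 8.25 CPM in cycling, 12.7, 7.66 and 7.06 in quiescent cells, 6.56, 5.47 and 5.78 in irradiated, 5.14, 4.51 and 5.798 in etoposide and 3.78 and 6.08 in thapsigargin cells. Every senescent and thapsigargin library was below every cycling and quiescent library. The senescent mean was 0.73 ± 0.20 lower than quiescent cells (adjusted p = 0.0129, but 0.12 without quiescent replicate 1, its highest library), while the falls against cycling cells, -0.46 ± 0.26 in irradiated, -0.66 ± 0.26 in etoposide and -0.72 ± 0.29 in thapsigargin cells, were not called (adjusted p = 0.199, 0.0665 and 0.0866). The irradiated and etoposide values passed the threshold with the 2 states alone (0.0204 and 0.0107), and the etoposide value also without the thapsigargin libraries (0.0455). The thapsigargin value was -1.09 without thapsigargin replicate 2 (adjusted p = 0.0372) and -0.41 without replicate 1 (0.355). PSMB9 footprints stood at 18.1, 20.6 and 25.7 CPM in cycling, 27.3, 21.4 and 24.7 in quiescent cells, 15.4, 13.2 and 18.3 in irradiated, 9.29, 9.65 and 14.1 in etoposide and 0.545 and 9.91 in thapsigargin cells. They were 0.96 ± 0.33 lower in etoposide than in cycling cells and 0.90 ± 0.27 lower in the senescent mean than in quiescent cells (adjusted p = 0.0377 and 0.0261), and the irradiated value of -0.45 ± 0.34 was not called. The etoposide call was lost without any 1 of the 3 cycling libraries or etoposide replicate 1 or 2 (adjusted p of 0.052 to 0.14). The senescent call against quiescent cells was lost without replicate 1 or 2 of either senescent state (0.0598 to 0.0639). After thapsigargin they fell by 2.01 ± 0.51 (adjusted p = 0.00625, and 0.0593 with the 2 states alone) from 1 and 19 counts, and the value ranged from -5.25 to -1.13 when single libraries were left out.

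PSMB8, the third immunoproteasome subunit, was lower in footprints after thapsigargin. Its footprints stood at 61.9, 66.5 and 62.6 CPM in cycling, 53.5, 58.2 and 58.8 in irradiated, 49.2, 41.9 and 50.5 in etoposide and 17.98 and 37.05 in thapsigargin cells. The thapsigargin fall was 1.21 ± 0.22 (adjusted p = 0.000718) and held in every alternative, with values from -1.81 to -0.80 when single libraries were left out. The etoposide value of -0.43 ± 0.17 was not called (adjusted p = 0.0603), although every etoposide library was below every cycling library. It passed the threshold with DESeq2 (adjusted p = 0.022), with no filter on low counts (0.049), with the 2 states alone (0.0024) and without the thapsigargin libraries (0.0049). PSMB8 RNA was not called in any comparison, and its values were -0.15 ± 0.18 in irradiated, -0.18 ± 0.18 in etoposide and -0.53 ± 0.19 in thapsigargin cells, the last called without thapsigargin replicate 1 (adjusted p = 0.0451). The senescent mean against quiescent cells was -0.37 ± 0.14 in RNA and -0.37 ± 0.14 in footprints (adjusted p = 0.0503 and 0.0714). The RNA value passed the threshold in 5 of its alternatives, among them DESeq2 (0.0444) and the fit without the thapsigargin libraries (0.0366). The footprint value passed it in 4, with DESeq2 (0.0231), no filter (0.0309), the states compared alone (0.0103) and no thapsigargin libraries (0.00647).

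The cap that pairs with the immunoproteasome is built from PSME1 and PSME2. PSME1 footprints stood at 191, 211 and 206 CPM in cycling, 237, 241 and 216 in irradiated, 176, 172 and 187 in etoposide and 106 and 132 in thapsigargin cells. Irradiated and etoposide libraries did not overlap, differing by 0.38 ± 0.10 on the log2 scale (adjusted p = 0.0159, and 0.055 to 0.12 without irradiated or etoposide replicate 1 or 2). After thapsigargin PSME1 fell by 0.77 ± 0.12 in footprints (adjusted p = 0.000204, held in every alternative) and by 0.41 ± 0.14 in RNA (adjusted p = 0.0443). The RNA call was lost in 6 of 10 alternatives, among them leaving out either cycling library or thapsigargin replicate 2 (adjusted p of 0.099 to 0.23). PSME2 was not called in any comparison in RNA or footprints, with log2 fold changes from -0.17 to 0.28. It has 6 symbols of processed copies. Its counts are uncertain, and the part of the copies in them was not tested.

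In the base of the regulatory particle, PSMC3 and PSMC4, both ATPases of the same ring, moved in opposite directions in senescence. PSMC3 RNA stood at 225 and 196 CPM in cycling, 149.7, 180.2 and 150.1 in irradiated and 158, 167 and 159 in etoposide cells, lower by 0.40 ± 0.11 and 0.38 ± 0.11 on the log2 scale (adjusted p = 0.0145 and 0.0178). PSMC3 footprints stood at 342, 313 and 322 CPM in cycling, 255, 275 and 282 in quiescent cells, 224, 234 and 239.8 in irradiated, 225, 222 and 209 in etoposide and 666 and 542 in thapsigargin cells. No senescent library overlapped with a cycling or quiescent one. Footprints fell by 0.48 ± 0.09 in irradiated and 0.57 ± 0.09 in etoposide cells (adjusted p = 0.00077 and 0.000217), calls that held in every alternative. The RNA calls were lost without cycling replicate 1 (adjusted p = 0.18 and 0.19), without etoposide replicate 3 (0.051) and without irradiated replicate 1 or 3 (0.0603 and 0.0605).

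PSMC4 RNA stood at 122 and 113 CPM in cycling, 129, 129.998 and 118 in quiescent cells, 144, 154 and 132 in irradiated and 164, 180.3 and 167 in etoposide cells. All senescent libraries were above all cycling and quiescent libraries. PSMC4 rose by 0.54 ± 0.11 in etoposide RNA (adjusted p = 0.00159, held in every alternative) and by 0.29 ± 0.11 in irradiated RNA (adjusted p = 0.0479, lost in 7 of 12, among them without cycling replicate 1 or 2 and irradiated replicate 1 or 2, with adjusted p of 0.10 to 0.26). PSMC4 footprints, at 201, 203 and 205 CPM in cycling, 238, 263 and 245 in irradiated and 275, 278 and 269.7 in etoposide cells, rose by 0.29 ± 0.10 and 0.43 ± 0.10 (adjusted p = 0.0264 and 0.00319). The irradiated footprint call was lost without cycling replicate 1 (0.069) or irradiated replicate 2 (0.10) and with no filter on low counts (0.085).

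A further ATPase, PSMC5, had lower footprints in senescent cells. PSMC5 footprints stood at 404, 385 and 341 CPM in cycling, 380.0, 388 and 320.3 in quiescent cells, 274, 317 and 294 in irradiated and 288, 262 and 267 in etoposide cells. The senescent libraries were below all cycling and quiescent ones, by 0.35 ± 0.10 in irradiated and 0.47 ± 0.10 in etoposide against cycling cells (adjusted p = 0.0126 and 0.00268). PSMC5 RNA values of 0.19 ± 0.28 and 0.27 ± 0.28 were not called, and the ratio of footprints to RNA was not called either in the test given further on. The irradiated footprint call was lost without cycling replicate 1 or 2 or irradiated replicate 1 or 3 (adjusted p of 0.053 to 0.064). PSMC2 and PSMC6, the remaining ATPases tested, were not called in any comparison with cycling cells.

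PSMD4, the base subunit that binds ubiquitin chains, had footprints at 192, 191 and 178 CPM in cycling, 208, 198 and 177 in quiescent cells, 246, 256 and 269.8 in irradiated and 219.5, 228 and 220.3 in etoposide cells. All senescent libraries were above all cycling and quiescent ones. The rises were 0.46 ± 0.08 in irradiated (adjusted p = 0.000672, held in every alternative) and 0.25 ± 0.08 in etoposide cells (adjusted p = 0.0297, lost without any 1 of the 6 libraries compared, with adjusted p of 0.054 to 0.10). PSMD2, the base scaffold, had footprints at 753 to 791 CPM in cycling and 606 to 712 CPM in irradiated cells, lower by 0.26 ± 0.09 (adjusted p = 0.0329, and 0.078 to 0.13 without any 1 cycling library or irradiated replicate 1 or 2). That call was also lost with RLE factors (0.0798) and with DESeq2 (0.0556). PSMD1 was not called in quiescent or senescent cells.

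The lid had 1 member lower and 1 higher in senescent footprints. PSMD11, a lid subunit known to raise assembly of the whole particle, had footprints at 296, 306 and 298 CPM in cycling, 244, 277 and 225 in quiescent cells, 231, 226 and 220.1 in irradiated, 217, 205 and 218 in etoposide and 154 and 173 in thapsigargin cells. Every library outside the cycling state was below every cycling library. The falls were 0.41 ± 0.09 in irradiated and 0.49 ± 0.09 in etoposide cells (adjusted p = 0.00244 and 0.000746), and both held in every alternative. Its RNA was not called, at -0.13 ± 0.13 and -0.35 ± 0.13. PSMD8 footprints stood at 214, 194 and 214 CPM in cycling, 177, 180.0 and 227 in quiescent cells, 240.2, 256 and 259 in irradiated and 264, 263 and 249.8 in etoposide cells, with no overlap between senescent and other libraries. PSMD8 rose by 0.28 ± 0.10 and 0.32 ± 0.10 against cycling cells and by 0.39 ± 0.09 in the senescent mean against quiescent cells (adjusted p = 0.0383, 0.0231 and 0.00468). Only the last of these 3 held in every alternative: the irradiated call was lost without cycling replicate 1 or 2 or any irradiated library (adjusted p of 0.059 to 0.10), and the etoposide call without cycling replicate 2 or etoposide replicate 1 (0.084 and 0.069). The 6 other lid subunits (PSMD3, PSMD6, PSMD7, PSMD12, PSMD13 and PSMD14) were not called in quiescent or senescent cells in RNA or footprints.

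**Figure D4:**
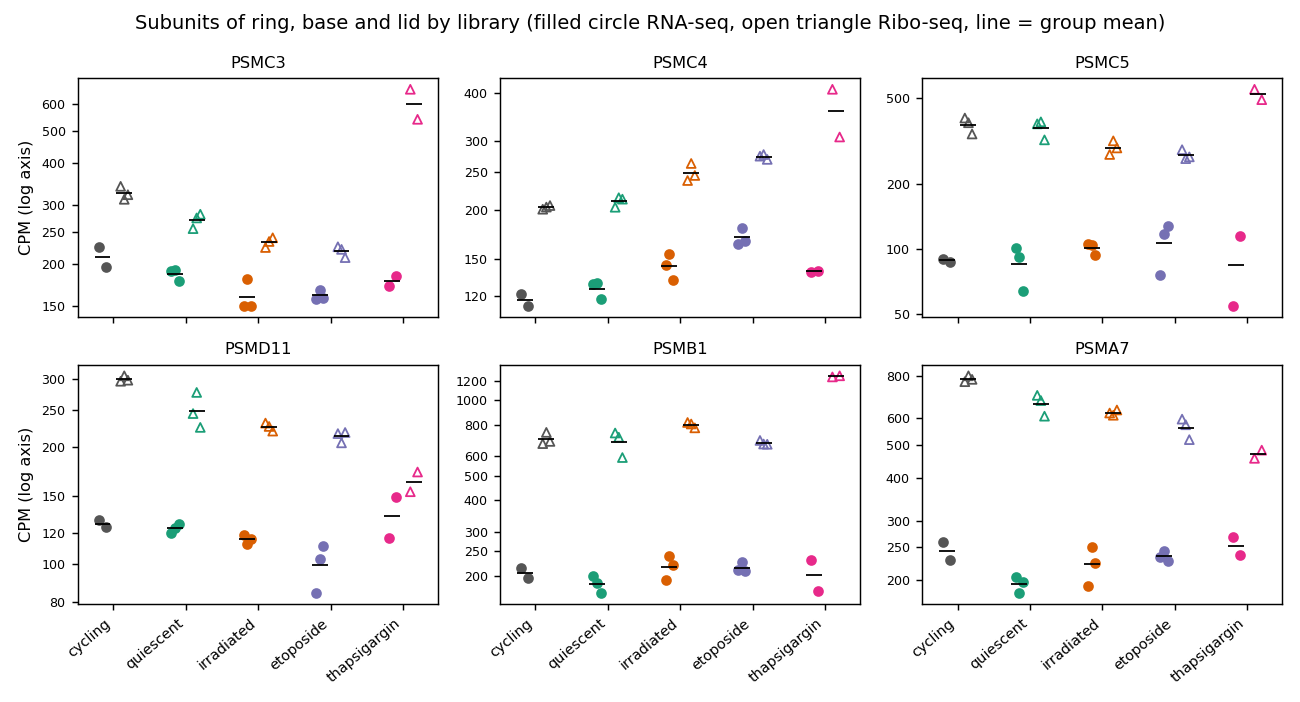
Normalised read counts (CPM, log axis, a separate scale in each panel) of PSMC3, PSMC4, PSMC5, PSMD11, PSMB1 and PSMA7 in each library, with filled circles for RNA-seq, open triangles for Ribo-seq and lines for group means. PSMC3 footprints are lower in the senescent libraries (209 to 239.8 CPM) and higher in the thapsigargin libraries (542 and 666 CPM) than in the cycling ones (313 to 342 CPM), while PSMD11 and PSMA7 footprints are lowest after thapsigargin.

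None of the 7 assembly chaperones was called against cycling cells in the RNA of any state, or in the footprints of quiescent or senescent cells. Against quiescent cells, the RNA of PSMD10, a base chaperone also known as gankyrin, was 0.45 ± 0.13 higher in the senescent mean (adjusted p = 0.0171). It stood at 68.3, 56.4 and 80.3 CPM in quiescent cells, 83.6, 103 and 103 in irradiated and 96.9, 92.2 and 81.1 in etoposide cells. The RNA of PSMG4, a chaperone of the core particle, was 0.46 ± 0.15 higher (adjusted p = 0.0278), at 11.1, 9.14 and 6.94 CPM in quiescent cells, 10.9, 12.6 and 11.8 in irradiated and 12.02, 14.6 and 13.1 in etoposide cells. Without quiescent RNA-seq replicate 2 both calls were lost (adjusted p = 0.090 and 0.0737), and that of PSMG4 also without quiescent replicate 3 or replicate 2 of either senescent state (0.062 to 0.11). PSME4, the cap that acts on acetylated histones, had footprints at 145, 154 and 133 CPM in cycling, 104, 94.8 and 107 in irradiated and 134, 132 and 128 in etoposide cells. It was 0.50 ± 0.10 lower in irradiated than in cycling cells (adjusted p = 0.00152, held in every alternative) and 0.37 ± 0.10 lower in irradiated than in etoposide cells (adjusted p = 0.0194, and 0.057 to 0.080 without irradiated or etoposide replicate 1 or 2). PSME3, a nuclear cap, and PSMF1, an inhibitor of the core particle, were not called in any comparison in RNA or footprints.

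Between the arrested states the RNA of 8 members was called in the senescent mean against quiescent cells, 6 higher and 2 lower, beside 34.2% of all genes (16.6% higher and 17.6% lower). The higher ones included PSMB10, PSMB5, PSMG4, PSMD10 and PSMC4 (0.31 ± 0.08, adjusted p = 0.00953) and PSMB3 (0.29 ± 0.10, adjusted p = 0.0381, lost in 8 alternatives, with adjusted p up to 0.091). PSMA2 and PSMB9 were the lower ones. PSMA2 stood at -1.84 ± 0.59 (adjusted p = 0.0269), but at -1.02 without quiescent replicate 2 (adjusted p = 0.262), and its call was also lost with unstranded counts and without irradiated replicate 1 or 3 or etoposide replicate 3 (0.0528 to 0.121). In footprints 6 were called, 3 higher (PSMD8, PSMC4 and PSMD4) and 3 lower (PSMB9, PSMC5 and PSMC3), beside 26.0% of all genes (12.4% higher and 13.6% lower). PSMC4 and PSMD4 stood at 0.31 ± 0.08 and 0.30 ± 0.07 (adjusted p = 0.0141 and 0.00813, and 0.0734 and 0.0744 with no filter on low counts), and 2 of the 6 calls, PSMC5 and PSMD8, held in every alternative. PSMC5 fell by 0.36 ± 0.09 there (adjusted p = 0.00762), and PSMC3 by 0.26 ± 0.08 (adjusted p = 0.0207, and 0.050 to 0.068 without quiescent replicate 2 or 3 or irradiated replicate 1). In the RNA, irradiated and etoposide cells differed in 0 members by edgeR (1 had an unadjusted p under 0.05, and DESeq2 called 1), beside 22.6% of all genes (9.68% higher and 12.9% lower). In footprints they differed in 2, PSME1 higher and PSME4 lower in irradiated cells, beside 21.7% of all genes (7.77% higher and 13.9% lower). In quiescent against cycling cells the 3 lower footprint values were PSMC3 (-0.27 ± 0.09), PSMD11 (-0.27 ± 0.09) and PSMA7, with adjusted p of 0.0453, 0.0418 and 0.041. Each was lost in 8 or 9 of 13 alternatives, and between 0 and 2 members were called when single libraries were left out. The immunoproteasome subunits PSMB8, PSMB9 and PSMB10 stood at 0.21 ± 0.18, 0.17 ± 0.26 and 0.03 ± 0.23 in quiescent RNA and at 0.07 ± 0.16, 0.19 ± 0.31 and 0.22 ± 0.32 in quiescent footprints, none called.

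Translational efficiency, the footprint change relative to the RNA change, was tested as an interaction in a fit over all 27 libraries and 11713 genes. It was called for 0 of 44 members in quiescent, irradiated and etoposide cells by edgeR (2, 2 and 3 had an unadjusted p under 0.05, and DESeq2 called 0 in each), beside 0.00854% of all genes (0.00854% higher and 0% lower), 0.0512% of all genes (0.0427% higher and 0.00854% lower) and 0.0683% of all genes (0.0256% higher and 0.0427% lower). The median standard error of a member's log2 value in these 3 comparisons was 0.19, so a change in efficiency of the size of the footprint changes above was mostly not detectable at this precision. After thapsigargin 8 members were called, 4 higher and 4 lower, beside 20.8% of all genes (7.89% higher and 12.9% lower), and DESeq2 called 12.

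Several facts about the thapsigargin libraries stand beside those values. Their Ribo-seq tables list 62703 gene identifiers, where the other 12 Ribo-seq tables list 60664. They had 1936976 and 2044900 gene counts, with 65.2 and 66.9% of reads mapped to several places, against at most 31.9% in the other Ribo-seq libraries. Of the 11764 tested genes, 1383 and 810 were at 0 counts in them, against 5 to 118 in the others. Their RNA-seq libraries left 1.35 and 1.40% of reads unmapped, against 27.8 to 40.6% in the other states. Drug, medium, gene list and library preparation cannot be told apart in this comparison. The 2 Ribo-seq libraries differed for sparse members such as PSMA6 (1 and 16 counts) and PSMD9 (14.2 and 0.522 CPM).

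After thapsigargin the 11 members with higher footprints included 5 base subunits. In the base, 3 of 5 tested ATPases and 2 of 3 other subunits were called higher and 0 lower. Of all genes, 20.0% were called higher and 24.4% lower in this comparison. PSMC3 footprints, at 666 and 542 CPM, exceeded all 12 other libraries, and rose by 0.89 ± 0.10 over cycling cells (adjusted p = 1.45e-05) while its RNA was at -0.24 ± 0.12 and not called. PSMC4 footprints, at 408 and 308 CPM, rose by 0.82 ± 0.11 (adjusted p = 5.86e-05) and those of PSMC5, at 549.7 and 492 CPM, by 0.47 ± 0.11 (adjusted p = 0.00447). PSMD1 rose by 0.45 ± 0.10, and PSMD2 by 0.34 ± 0.10 (adjusted p = 0.00222 and 0.015), and the PSMD2 call was lost without thapsigargin replicate 2 (0.13). In the same comparison PSMD5, a base chaperone, rose by 0.36 ± 0.12 (adjusted p = 0.0299, but 0.32 without thapsigargin replicate 2 and 0.057 to 0.058 without cycling replicate 1 or 3). PSME4 rose by 0.47 ± 0.11 (adjusted p = 0.00446), to 202 and 197 CPM.

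The rings of the core split. PSMB1, a non-catalytic beta subunit, had footprints at 673, 746 and 686 CPM in cycling and 1241 and 1253 CPM in thapsigargin cells. Both thapsigargin libraries were above all 12 others, and the rise was 0.83 ± 0.10 (adjusted p = 2.05e-05). Its RNA was at 216 and 196 and 230.4 and 173 CPM, which overlap. PSMB2, at 389, 368 and 374 CPM in cycling and 216 and 271 CPM in thapsigargin footprints, fell by 0.63 ± 0.10 (adjusted p = 0.000256), and PSMB3 by 0.28 ± 0.08 (adjusted p = 0.0125, and 0.063 without cycling replicate 3). Among alpha subunits PSMA5 rose by 0.46 ± 0.10 and PSMA3 by 0.42 ± 0.12 (adjusted p = 0.0031 and 0.0134), while PSMA7, PSMA4 (-0.49 ± 0.13, adjusted p = 0.00839) and PSMA1 (-1.15 ± 0.40, adjusted p = 0.0308) fell. The calls of PSMA3 and PSMA4 were lost without thapsigargin replicate 1 (0.055) and 2 (0.059), and that of PSMA1, from 3 and 15 counts, without thapsigargin replicate 1 (0.31) or cycling replicate 2 or 3 (0.059 and 0.066).

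In the lid, PSMD6 rose and PSMD11 and PSMD8 fell. PSMD6 footprints stood at 462, 399 and 329.9 CPM in cycling and 651 and 580.2 CPM in thapsigargin cells, a rise of 0.63 ± 0.15 (adjusted p = 0.00504, and 0.050 without thapsigargin replicate 1). PSMD11 fell by 0.88 ± 0.10 (adjusted p = 2.75e-05) with RNA at 0.06 ± 0.14. PSMD8 fell by 0.35 ± 0.12 (adjusted p = 0.0249), at 161 and 165 CPM, a call lost without cycling replicate 1 or 3 or either thapsigargin library (0.060 to 0.084). In translational efficiency PSMC3 (1.10 ± 0.16), PSMB1 (0.83 ± 0.20), PSMD6 (0.76 ± 0.25) and PSMC4 (0.54 ± 0.16) were called higher, with adjusted p of 5.63e-05, 0.005, 0.0313 and 0.0199. PSMA1 (-1.51 ± 0.45), PSMD11 (-0.97 ± 0.19), PSMA7 (-0.81 ± 0.18) and PSMB2 (-0.63 ± 0.19) were called lower, with adjusted p of 0.0203, 0.00092, 0.00297 and 0.02. PSMC3, PSMB1, PSMD11 and PSMA7 kept their efficiency calls in every alternative, and PSMD6, PSMC4, PSMA1 and PSMB2 lost theirs without thapsigargin Ribo-seq replicate 1, among others (0.089 to 0.19). Without thapsigargin Ribo-seq replicate 2 there were 15 such calls in place of 8.

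**Figure D5:**
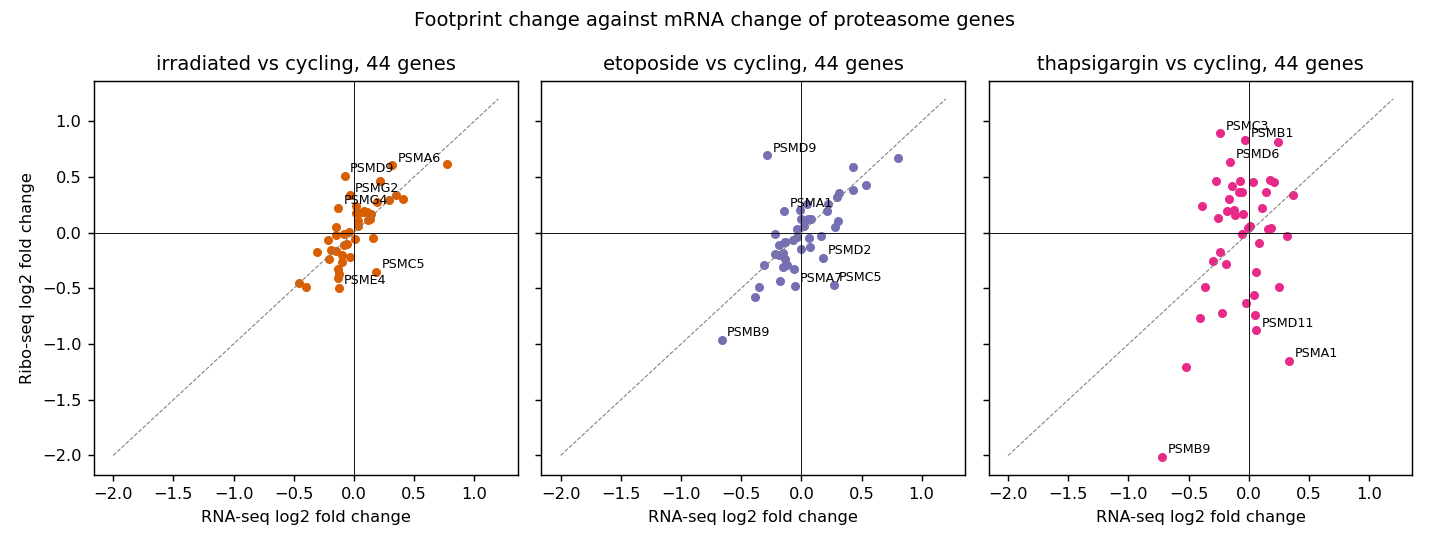
Log2 fold change in Ribo-seq (vertical axis) against that in RNA-seq (horizontal axis) for the 44 proteasome genes tested in both, in irradiated, etoposide and thapsigargin against cycling cells, with the line of equal change dashed. In the thapsigargin panel footprint values run from -2.01 for PSMB9 to 0.89 for PSMC3 over RNA values between -0.72 and 0.37.

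The listed partners of the proteasome particle were not called more often than all genes in senescent RNA. Of 12 partners of the particle, 4 were called higher and 0 lower in irradiated RNA and 3 higher and 1 lower in etoposide RNA, beside 34.9% of all genes (16.2% higher and 18.8% lower) and 34.5% of all genes (16.8% higher and 17.8% lower). In footprints 5 were higher and 1 lower and 3 higher and 1 lower, beside 39.8% and 34.0% of all genes. The list's median log2 fold change was 0.34 in irradiated and 0.23 in etoposide RNA, beside 0.03 and 0.00 for all genes. ZFAND5, which binds the particle and stimulates it, rose by 1.01 ± 0.13 in irradiated and 0.93 ± 0.13 in etoposide RNA (adjusted p = 6.84e-05 and 0.000116) and by 1.23 ± 0.12 and 0.73 ± 0.12 in footprints (adjusted p = 4.80e-06 and 0.000363). These 4 calls held in every alternative. ZFAND5 was also called higher in quiescent than in cycling cells, by 0.42 ± 0.13 in RNA and 0.45 ± 0.12 in footprints (adjusted p = 0.0441 and 0.0158). The quiescent RNA call was lost with a replicate block (0.082), among others, and the footprint call without cycling Ribo-seq replicate 3 (0.0548). The senescent mean was 0.55 ± 0.10 and 0.53 ± 0.11 above quiescent cells in RNA and footprints (adjusted p = 0.0011 and 0.00251). ZFAND5 RNA stood at 207 and 216 CPM in cycling, 399, 430.3 and 447 in irradiated and 430.3, 427 and 355 in etoposide cells, with no overlap. Its irradiated footprints exceeded its etoposide ones by 0.49 ± 0.12 (adjusted p = 0.01, and 0.61 with unstranded counts). PITHD1, which also binds the particle, rose by 0.54 ± 0.13 in etoposide RNA (adjusted p = 0.00587, and 0.0581 without cycling replicate 2). AKIRIN2, which carries proteasomes into the nucleus, rose by 0.59 ± 0.10 in irradiated footprints (adjusted p = 0.000353). UCHL5, a deubiquitinase of the particle, was 0.48 ± 0.16 lower in etoposide RNA (adjusted p = 0.034, lost without either cycling library or etoposide replicate 1 or 2, with adjusted p of 0.087 to 0.13). UCHL5 footprints were lower than in cycling cells by 0.43 ± 0.13 in quiescent, 0.47 ± 0.14 in irradiated and 0.48 ± 0.14 in etoposide cells (adjusted p = 0.0323, 0.0165 and 0.0155). Each of these calls was lost without cycling Ribo-seq replicate 2 (0.13, 0.077 and 0.064), among others. After thapsigargin 1 of the 12 was called higher and 1 lower in RNA, beside 24.5% of all genes (11.7% higher and 12.8% lower). These were ZFAND5 and SEM1, a small lid subunit (0.42 ± 0.14 and -0.61 ± 0.13, adjusted p = 0.0442 and 0.00479). In footprints 0 of the 12 values were called, beside 44.4% of all genes (20.0% higher and 24.4% lower). The ZFAND5 value lost its call without either cycling library or thapsigargin replicate 1 (0.14 to 0.23).

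NFE2L1 is the transcription factor that raises proteasome genes when the proteasome is inhibited, after DDI2, NGLY1 and VCP release and process it and with small MAF proteins as partners. Of these and related genes (10 in all), 5 were called higher and 1 lower in irradiated RNA, 6 higher and 0 lower in etoposide RNA and 5 higher and 0 lower after thapsigargin, beside 34.9%, 34.5% and 24.5% of all genes called in either direction. Their median log2 fold changes in these 3 comparisons were 0.44, 0.46 and 0.60, beside 0.03, 0.00 and -0.03 for all genes. NFE2L1 RNA stood at 189 and 209.8 CPM in cycling, 190.3, 240.1 and 228 in quiescent cells, 389, 384 and 325 in irradiated, 379.5, 406 and 486 in etoposide and 151 and 214 in thapsigargin cells. The senescent libraries were above all others, by 0.88 ± 0.17 in irradiated against cycling cells (adjusted p = 0.00125) and 0.84 ± 0.13 in the senescent mean against quiescent cells (adjusted p = 0.000324). MAFK rose by 0.88 ± 0.16 in irradiated and 1.35 ± 0.16 in etoposide RNA (adjusted p = 0.00069 and 2.35e-05), and MAFF by 1.09 ± 0.14 in etoposide RNA (adjusted p = 6.60e-05). After thapsigargin MAFG rose by 1.68 ± 0.13 and MAFK by 1.42 ± 0.17 (adjusted p = 2.62e-06 and 6.22e-05). SEL1L, part of the complex that extracts proteins from the endoplasmic reticulum, was 0.85 ± 0.26 lower in irradiated RNA (adjusted p = 0.0213) and 1.28 ± 0.28 lower in irradiated footprints (adjusted p = 0.00274). Its RNA call was lost without cycling replicate 1 or 2 or irradiated replicate 1 (0.068 to 0.11). SYVN1, the ubiquitin ligase of that complex, fell by 1.57 ± 0.43 in irradiated footprints (adjusted p = 0.0099) and differed from etoposide footprints by -2.06 ± 0.43 (adjusted p = 0.00423). In footprints 5 of the 10 were called higher and 2 lower in irradiated, 6 and 0 in etoposide and 3 and 0 in thapsigargin cells, beside 39.8%, 34.0% and 44.4% of all genes in either direction, the last led by MAFG (1.78 ± 0.28, adjusted p = 0.000244) and MAFF (1.46 ± 0.33, adjusted p = 0.00338).

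Of 12 genes for ubiquitin, its activation and the shuttles that bring tagged proteins to the proteasome, 4 were called higher and 0 lower in the RNA of each senescent state, which is near the 34.9% and 34.5% of all genes called. In footprints 7 were higher and 0 lower in irradiated and 6 higher and 1 lower in etoposide cells, beside 39.8% and 34.0% of all genes, with median log2 fold changes of 0.29 and 0.26, beside -0.01 and -0.01 for all genes. ZFAND2A, an arsenite-inducible regulator of the proteasome, rose by 1.23 ± 0.20 and 1.43 ± 0.20 in irradiated and etoposide RNA (adjusted p = 0.000307 and 8.97e-05). After thapsigargin 1 gene was higher and 5 were lower in footprints, beside 44.4% of all genes. ZFAND2A footprints stood at 4.97, 4.76 and 5.66 CPM in cycling and 51.2 and 43.8 CPM in thapsigargin cells, a rise of 3.21 ± 0.23 (adjusted p = 4.37e-07). RAD23B, a shuttle, stood at 266, 276 and 261 and 113 and 121 CPM, a fall of 1.19 ± 0.11 (adjusted p = 2.19e-06), and MIDN, which delivers proteins without ubiquitin, fell by 1.62 ± 0.26 (adjusted p = 0.000277).

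Interferon regulators and antigen loading genes, which share their known inducer with PSMB8, PSMB9 and PSMB10, went apart as well. Of 11, 3 were called higher and 8 lower in irradiated RNA and 3 higher and 2 lower in etoposide RNA, beside 34.9% and 34.5% of all genes called in either direction. NLRC5, the activator of MHC class I genes, had RNA at 16.8 and 19.8 CPM in cycling and 8.07, 8.76 and 7.74 CPM in etoposide cells, a fall of 1.15 ± 0.15 (adjusted p = 4.57e-05). The transporter subunit TAP2 was 1.43 ± 0.26 lower in irradiated RNA (adjusted p = 0.000834), at 2.31, 3.56 and 3.97 CPM against 8.76 and 8.98 CPM in cycling cells. In etoposide cells TAP2 RNA stood at 10.7, 9.65 and 9.38 CPM, and the 2 senescent states differed by -1.60 ± 0.24 (adjusted p = 0.000515). IRF9, an interferon-response transcription factor, was called lower in both states but stood at no more than 1.04 CPM in any RNA-seq library, and its irradiated call was lost in 4 alternatives. The list's median log2 fold change was -0.95 in irradiated and -0.09 in etoposide RNA, beside 0.03 and 0.00 for all genes. Of the 10 genes of this list tested after thapsigargin, 0 were higher and 5 lower in footprints, beside 44.4% of all genes, with ERAP1, which trims peptides, at -1.70 ± 0.39 (adjusted p = 0.00352), and 0 of 11 were called in RNA, beside 24.5%.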

How the data were processed

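RNA-seq and Ribo-seq counts were deposited per library as reads per gene, made with STAR 2.7.10b on hg38 per the submitters' processing notes, which also name bcl2fastq and DESeq2 1.36.0. Reads mapped to several places are in no gene's count. Values were taken from the counts of the strand that holds most reads (column 4 for RNA-seq, column 3 for Ribo-seq). The 13 RNA-seq and 2 thapsigargin Ribo-seq tables list 62703 gene identifiers and the other 12 list 60664, and the 60534 shared ones were used, which hold 99.6 to 99.97% of gene counts. Of these, 60461 had a symbol and 19307 were protein-coding in the RefSeq table (GRCh38.p14), which also gave the promoter windows.

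Counts were scaled by TMM and tested with edgeR 4.0.16 (R 4.3.3): filterByExpr, quasi-likelihood F-test, all 5 states in 1 fit, Benjamini-Hochberg adjustment over all protein-coding genes tested, threshold 0.05. Standard errors are the log2 fold change over the root of F. CPM are counts per 1e6 counts of the protein-coding genes tested in that kind of library, after TMM scaling. Translational efficiency was the interaction of library kind and state. Scripts were tested on simulated data. Titles told RNA-seq from Ribo-seq for the thapsigargin libraries. Alternatives were DESeq2 1.42.0, RLE factors, no filter, unstranded counts, only the states compared, a replicate block and leaving out each library. A fit without the thapsigargin libraries was added after seeing the data.

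The members and the lists of other genes were chosen with earlier results of these data known. Named were PSMB5 to PSMB10, PSME1 and PSME2, the 3 called members with the highest and lowest log2 fold change in each comparison, and up to 2 called genes each way of the other lists, of which a part is printed. Some of these genes are not reported here. Further members were named after their values were seen.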

Additional observations from a re-analysis of the deposited data

How the results depend on the processing

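Of the 85 called values of named members, 902 of 1098 alternatives kept the call, 196 lost it and 0 changed direction. Of the 110 called values of other named genes, 1304 of 1434 alternatives kept the call and 0 changed direction. Fitting only the states compared moved most counts of called members: in RNA to 10 (irradiated, from 5), 12 (etoposide, from 6), 1 (thapsigargin, from 3) and 2 (irradiated against etoposide, from 0), in footprints to 0 (quiescent, from 3), 18 (irradiated, from 11), 20 (etoposide, from 11) and 7 (irradiated against etoposide, from 2), and in efficiency to 1 (irradiated, from 0) and 4 (thapsigargin, from 8). DESeq2 gave 2 in quiescent RNA, 1 in irradiated against etoposide RNA, and 6 and 4 in the same comparisons of footprints. Without a filter there were 3 calls in irradiated RNA and 0 in quiescent footprints, with unstranded counts 3 in irradiated RNA, and with RLE factors 0 in quiescent footprints. Without the thapsigargin libraries there was 1 call in irradiated against etoposide RNA, 6 in quiescent and 18 in etoposide footprints. The cause of these shifts was not tested.

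Leaving out single libraries gave 0 to 1 calls in quiescent, 0 to 3 in irradiated, 2 to 6 in etoposide and 1 to 7 in thapsigargin RNA, 5 to 9 in senescent against quiescent RNA and 0 to 0 between senescent states. In footprints it gave 0 to 2, 7 to 9, 6 to 10, 19 to 22, 4 to 7 and 0 to 2 in the same order, and 5 to 15 in thapsigargin efficiency. Where this left 1 library of a state, that library was assumed to vary like the other states.

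The replicate numbers are shared labels and no source says that they mark a common culture. Of 13 same-numbered pairs of RNA-seq and Ribo-seq libraries of 1 state, 7 had a correlation of deviations over 0.1, and 11 of 18 libraries correlated best with their own number, a hint from the data and not the design. With the replicate block the calls were 0, 5, 7, 3, 7 and 0 in RNA in that order, 5, 11, 12, 23, 8 and 3 in footprints and 6 in thapsigargin efficiency.

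Values that changed sign were none of them called. PSMB10 quiescent RNA was -0.031 with unstranded counts and ranged from -0.14 to 0.20 without single libraries. The other ranges were -0.17 to 0.10 (PSMB5) and -0.15 to 0.32 (PSMB9) in quiescent RNA, -0.036 to 0.087 (PSME2, irradiated), -0.12 to 0.0040 (PSMB6, etoposide), -0.11 to 0.022 (PSMB7, thapsigargin) and -0.034 to 0.24 (PSMB6, senescent against quiescent) in RNA. Between the senescent states RNA ranged from -0.20 to 0.10 (PSMB10), -0.13 to 0.017 (PSMB7, 0.031 with unstranded counts) and -0.085 to 0.15 (PSMB8, -0.015 with only these states and -0.016 without thapsigargin libraries). In footprints the ranges were -0.021 to 0.16 (PSMB8, quiescent), -0.96 to 0.99 (PSMB10, thapsigargin), -0.12 to 0.13 (PSMB7, thapsigargin, 0.027 with the replicate block) and -0.10 to 0.00050 (PSMB6, senescent against quiescent), and PSMB7 there was -0.028 with no filter. Between the senescent states footprints ranged from -0.16 to 0.031 (PSMB10), -0.11 to 0.011 (PSMB5), -0.083 to 0.014 (PSMB6) and -0.12 to 0.043 (PSME2).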
